A study of Mus musculus with 11 samples.

Results

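The genes described here are the translation initiation factors of the mouse, that is the protein-coding genes whose names in the mm9 annotation begin with Eif1 to Eif6. The rule gave 58 of 22359 protein-coding genes, and the other 22301 served as the comparison. For each gene, reads of PU.1 ChIP-Seq and of input DNA were counted in 500 bp around 1 transcription start site (TSS), the one whose window held the most starts of the gene's protein-coding transcripts. By role, the 58 genes were 12 factors of start codon selection and initiator tRNA delivery, 4 eIF2α kinases, 5 subunits of the exchange factor eIF2B, 13 subunits of the eIF3 scaffold, 12 cap-binding and helicase factors, 4 proteins that bind eIF4E, 4 factors of subunit joining and later steps, and 4 Argonaute genes that this annotation lists under Eif2c names. The Argonaute proteins act in RNA silencing and not in initiation, so that for these 4 genes the name and the function part.

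PU.1, the product of Sfpi1, is an ETS-family transcription factor best known from myeloid and B cells, and the study asked where it lies in the genomes of normal and leukemic erythroid cells. MEL cells are a murine erythroleukemia line, used here as 1 stably transfected clone (clone # 4) that carries GATA-1 joined to ER, and they were grown in DMEM with serum, L-glutamine and puromycin. ES-EP are erythroid progenitors made from embryonic stem cells and grown in StemPro34 medium with Epogen, human IGF-1, dexamethasone, murine SCF and β-mercaptoethanol. Chromatin of each cell type was prepared 2 times (A and B), precipitated with the T-21 antibody to PU.1 and sequenced in 2 libraries per preparation, with 1 input library from MEL cells and 2 from ES-EP.

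Translation begins when the cap-binding complex eIF4F, made of the cap-binding protein eIF4E, the scaffold eIF4G and the helicase eIF4A, brings the small ribosomal subunit to an mRNA. That subunit already holds eIF3, the start codon factors and the ternary complex of eIF2, GTP and initiator tRNA. Kinases that phosphorylate the α subunit of eIF2 block the recycling of eIF2 by eIF2B, and in erythroid cells the heme-regulated kinase Eif2ak1 ties globin synthesis to the supply of heme in this way.

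The 4 preparations had between 5697937 and 7095855 reads on the 21 chromosomes used, the MEL input had 4278560 and the ES-EP input 7488885 over its 2 libraries. A and B correlated at 0.785 in MEL cells and 0.867 in ES-EP over the log2 levels of the 10920 best covered windows, against a mean of 0.730 between cell types. A window of the 58 genes held a median of only 4.5 reads of MEL input and 14 of ES-EP input, so that single promoters are known within wide counting intervals. A 27-base read was unique in the genome at 76.8% (Eif1) or more of the positions in every one of the 58 windows, with a median of 100%. Levels are given as normalised reads, which are reads scaled to a depth of 10000000 reads per library or preparation. The 95% intervals given for ratios are exact binomial ones and cover counting error only, since reads are not independent molecules.

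To show what PU.1 would meet at these promoters, the windows were searched on both strands for GAGGAAGT, the purine-rich word typical of PU.1 sites, and for CCGGAAGT, the word typical of other ETS factors. The GAGGAAGT word lay in 3 of the 58 windows (5.17%, against 4.23% of all windows), those of Eif3j, Eif3m and Eif4a3. The CCGGAAGT word lay in 10 windows (17.2%, against 5.83% of all windows), those of Eif1a, Eif2ak1, Eif2b2, Eif2b4, Eif2s1, Eif3d, Eif3i, Eif3l, Eif4e2 and Eif5a2. Offsets are given in bp from the TSS base, which is 0. The sequences are from mm9, 5′ to 3′ on the strand of the gene, with each word in capitals, and were chosen to show both words beside the read counts given with the genes. The stretches of Eif2ak1 show the promoter of the heme-regulated kinase. ACTTCCTC, ACTTCCGG and CCCGCCCC are the reverse complements of the PU.1 word, the ETS word and the GC-rich word GGGGCGGG.

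Eif3j, chr2:121853982-121854131, plus strand, offsets -300 to -151: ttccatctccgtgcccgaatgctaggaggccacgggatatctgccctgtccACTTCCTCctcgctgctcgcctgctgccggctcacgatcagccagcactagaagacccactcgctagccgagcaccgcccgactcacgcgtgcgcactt
Eif3m, chr2:104857273-104857302, minus strand, offsets -65 to -36: aggcccgcgggGAGGAAGTagtactgtggg
Eif4a3, chr11:119161378-119161407, minus strand, offsets -4 to 25: ctgcggcgcgtcACTTCCTCccgaccgggc
Eif4e2, chr1:89110479-89110508, plus strand, offsets -10 to 19: ctcgccagccaaCCGGAAGTagccgggccc
Eif2s1, chr12:79962588-79962617, plus strand, offsets -218 to -189: aaccggttcccACTTCCGGttcctgttggg
Eif3l, chr15:78905563-78905652, plus strand, offsets -90 to -1: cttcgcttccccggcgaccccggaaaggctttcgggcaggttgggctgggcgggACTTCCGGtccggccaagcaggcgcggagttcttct
Eif2ak1, chr5:144578557-144578656, plus strand, offsets -100 to -1: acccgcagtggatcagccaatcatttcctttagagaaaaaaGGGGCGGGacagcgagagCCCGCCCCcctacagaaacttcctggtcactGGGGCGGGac
Eif2ak1, chr5:144578666-144578695, plus strand, offsets 9 to 38: ctcttgtgttACTTCCGGcttggggggagg

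The stretches of Eif3j, Eif3l and the upstream one of Eif2ak1 overlap no annotated exon, those of Eif4a3, Eif4e2 and the downstream one of Eif2ak1 overlap the first exon of the gene itself, and those of Eif3m and Eif2s1 overlap an exon of the neighbouring genes Ccdc73 and Atp6v1d.

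The first question was at which of these promoters PU.1 ChIP exceeded input. In MEL cells 4 of the 58 promoters had more ChIP than input reads past an adjusted p of 0.05 (limma voom, a linear model across all promoters that weights each log2 count by its precision), Eif1b, Eif3j, Eif2s3y and Eif3a, which is 6.90% against 2.83% of all promoters. In ES-EP 2 did, Eif4e2 and Eif1a, which is 3.45% against 2.35%. Of the calls in MEL cells, those of Eif1b and Eif3j rest on 0 reads of MEL input and that of Eif2s3y on 1. None of the 58 was lower in ChIP than in input past the same threshold, against 0.0894% (MEL) and 0.103% (ES-EP) of all promoters. These p-values rest on the spread between the 2 preparations of each cell type and between the 2 ES-EP input libraries, which were counted as 2 replicates, and the MEL input is 1 library. The median log2 ChIP over input of the 58 was 1.01 in MEL cells and 0.81 in ES-EP, against 0.50 and 0.15 over all other promoters, and 50 and 52 of the 58 values were above 0, against 64.4% and 55.4% of all promoters. With median-ratio scaling, which lowered the median of all promoters, the medians of the 58 were -0.10 (MEL) and 0.22 (ES-EP), with 26 and 37 values above 0, against -0.66 and -0.37 over the others. The MEL median was 0.38 without preparation B (others 0.24) and 1.61 without A (others 0.88), and the ES-EP median was 0.44 without A (others 0.10) and 1.08 without B (others 0.34).

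Reads counted without regard to the spread between preparations gave more calls. An exact binomial test on summed reads called 13 of the 58 promoters in MEL cells (22.4%, against 10.4% of all promoters) and 14 in ES-EP (24.1%, against 9.21%), and 8 promoters were in both lists (13.8%, against 6.01% of all promoters), Eif2b2, Eif2c3, Eif2s3y, Eif3a, Eif3l, Eif4a2, Eif4a3 and Eif4e2. At an unadjusted limma p under 0.05, 9 of the 58 were higher in MEL cells (15.5%, against 13.4%), 1 was lower (1.72%, against 2.21%) and 11 were higher in ES-EP (against 8.93% of all). In windows of 200 bp, limma called 11 in MEL cells (against 4.71% of all) and 3 in ES-EP (5.17%, against 3.01%), with repeated reads removed 5 (8.62%, against 3.29%) and 2 (3.45%, against 2.29%), and with median-ratio scaling 1 (1.72%, against 0.429%) and 3 (5.17%, against 2.94%).

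Both preparations stood above the input at 42 promoters in MEL cells (72.4%, against 40.6% of all) and 39 in ES-EP (67.2%, against 38.8%). They stood above 2 times the input at 18 promoters in MEL cells (31.0%, against 20.8%) and 13 in ES-EP (22.4%, against 12.4%). The limma calls turned on single libraries: the count in MEL cells was 1 without preparation B (1.72%, against 0.514% of all) and 5 without A (8.62%, against 5.22%), and the count in ES-EP was 0 without A (against 0.72%) and 4 without B (6.90%, against 3.44%). When either input library of ES-EP was left out, no promoter in the genome was called in either cell type.

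**Figure D1:**
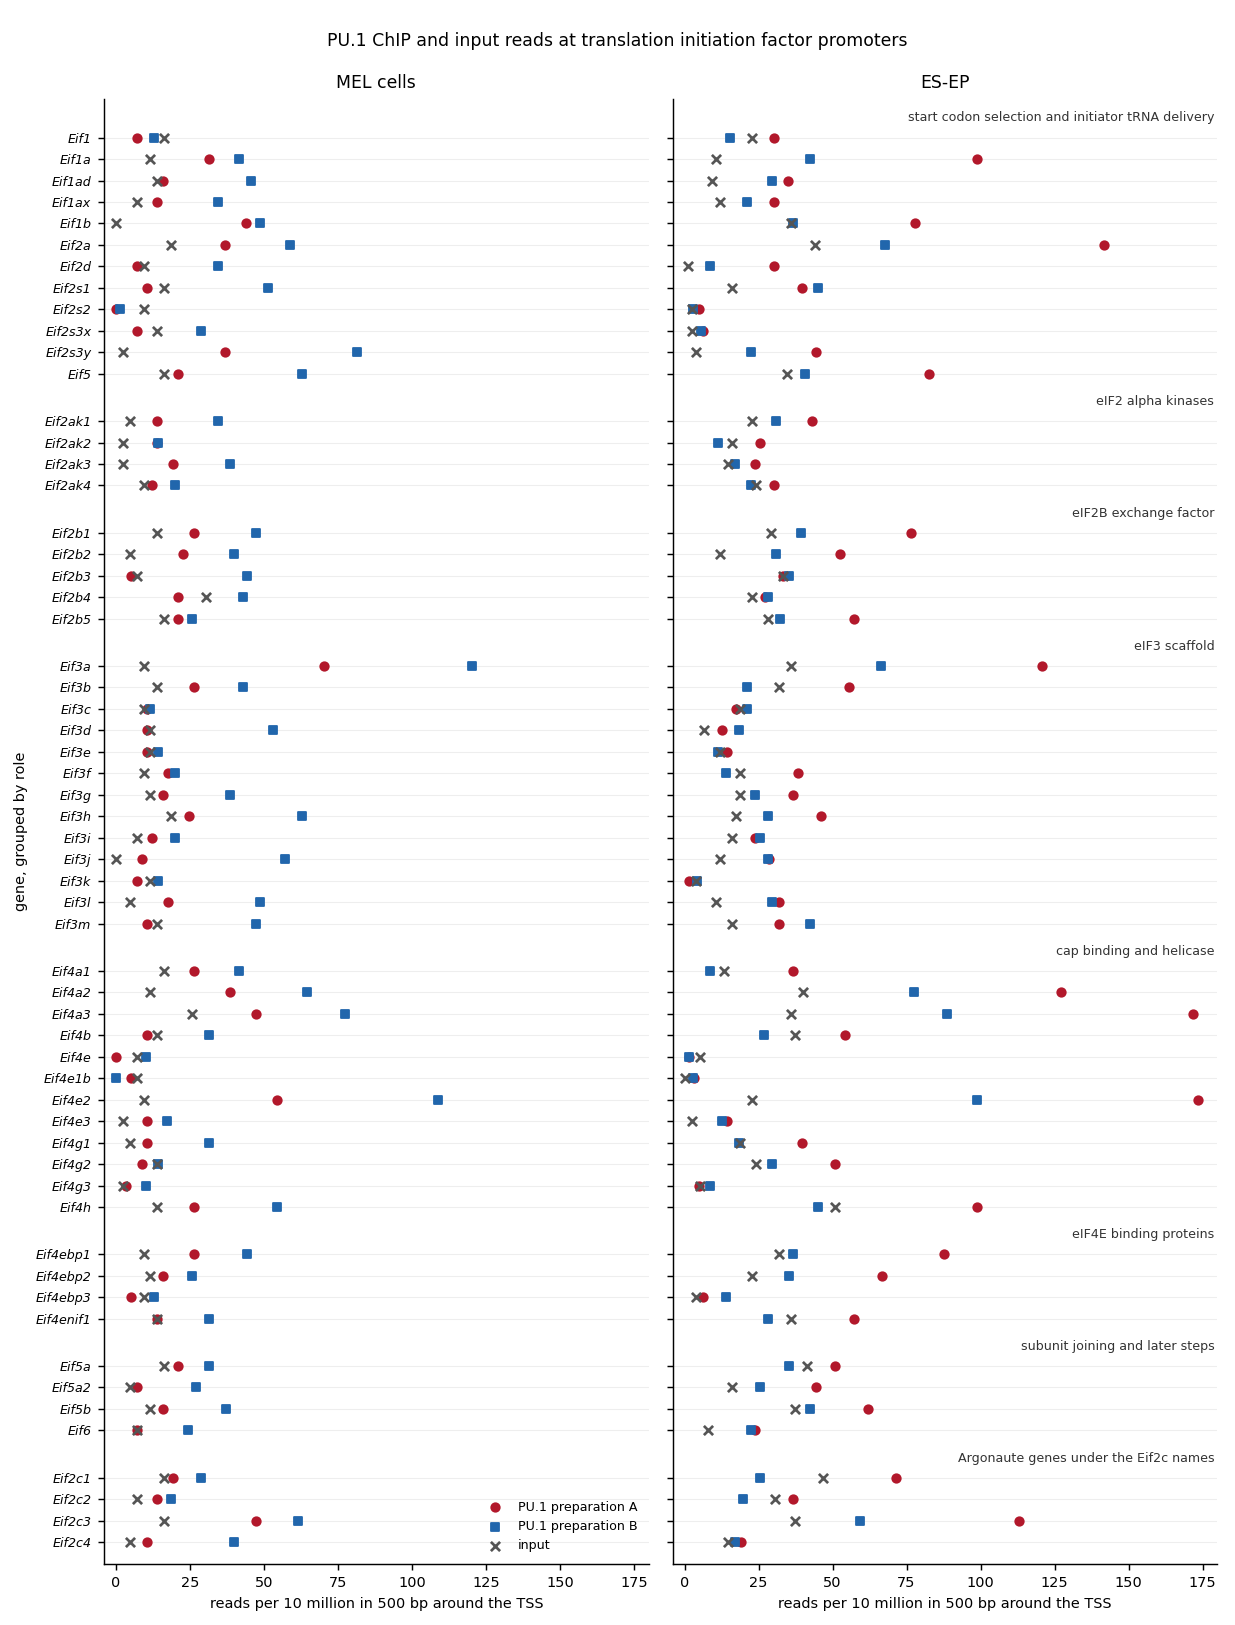
Normalised reads (scaled to 10000000) in the 500 bp window of each of the 58 genes (horizontal axis) for PU.1 preparations A and B and for the input, for MEL cells in the left panel and ES-EP in the right, the genes being grouped by role. In MEL cells most B values lie above the A values, and in ES-EP most A values lie above the B values. Eif4e2, Eif3a and Eif4a3 lie far to the right in both cell types, as do Eif2a and Eif4a2 in ES-EP.

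Base composition moved with these levels. The windows of the 58 genes had a median GC of 64.6% and a median CpG observed over expected of 0.878, against 57.6% and 0.599 in the others. Over the 6157 other promoters with a GC at or above 64.6%, the median log2 ChIP over input was 1.38 (MEL) and 0.42 (ES-EP). The median of the initiation factor promoters, 1.01 and 0.81, thus lay below that of these GC-rich promoters in MEL cells and above it in ES-EP. The part of base composition in the calls was not tested.

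**Figure D2:**
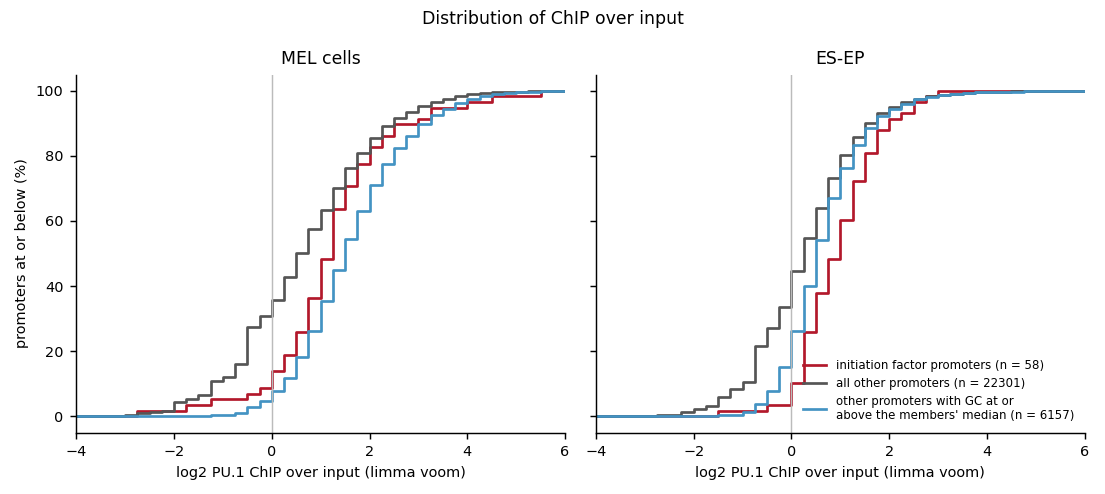
Share of promoters (percent, vertical axis) at or below each log2 ChIP over input (horizontal axis) for the 58 initiation factor promoters, all 22301 others, and the 6157 others of high GC. Between values of 0 and 2 the curve of the 58 lies to the right of that of all others in both cell types, to the left of the high-GC curve in MEL cells and to its right in ES-EP.

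The 2 libraries of each preparation did not show the same gap. With library 1 of each preparation alone, the median log2 ChIP over input of the 58 was 0.94 in MEL cells and 0.39 in ES-EP, against 0.85 and 0.34 over the others. With library 2 alone it was 1.11 and 0.92, against 0.68 and 0.34. The median of the initiation factors thus stood 0.09 and 0.05 above that of all promoters with library 1 and 0.43 and 0.58 above it with library 2. All input libraries were kept in both fits. Library 1 of a ChIP preparation held 2054667 to 2735336 reads and library 2 held 3643270 to 4840424. The part of depth in the gap was not tested. Among promoters with at least 20 reads, which kept 55 of the 58, the medians in MEL cells were 1.02 for the 58 and 1.09 for the others, so that there the 58 lay below the others, while in ES-EP they were 0.83 and 0.48. That filter called 2 of the 55 in each cell type (3.64%, against 1.81% and 4.27% of all promoters kept).

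**Figure D3:**
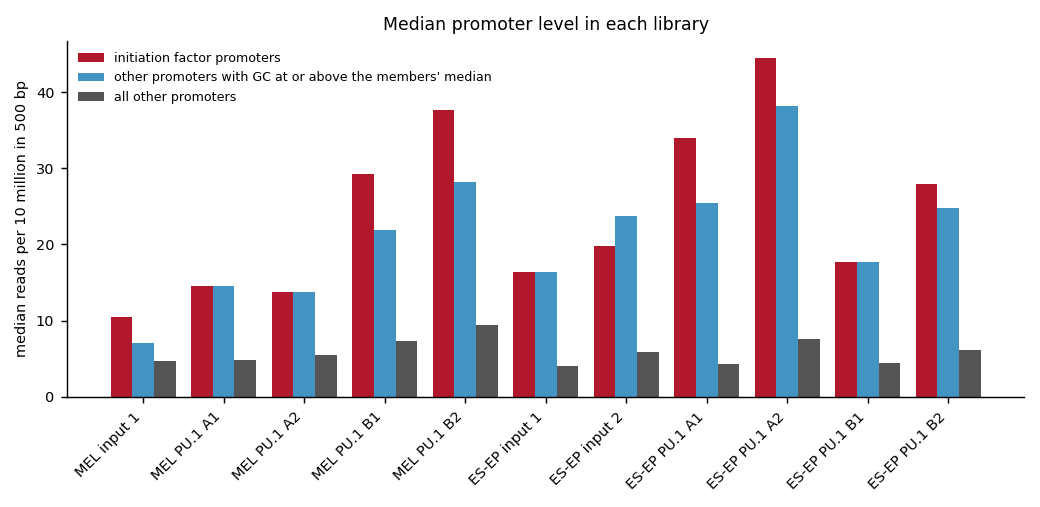
Median normalised reads (scaled to 10000000) in the 500 bp window (vertical axis) in each of the 11 libraries, for the 58 initiation factor promoters, the other promoters of high GC and all other promoters. The median of the 58 stands above that of all other promoters in every library, inputs included, while against the high-GC promoters it runs from below in ES-EP input 2 (19.8 against 23.8) to above in the MEL input (10.5 against 7.01).

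The input libraries themselves held more reads at these promoters than elsewhere. The median input level of the 58 was 10.5 normalised reads (MEL) and 18.7 (ES-EP), against 4.67 and 5.34 at the others. In the MEL ChIP the medians of the 58 were 14.0 (A) and 35.8 (B), against 5.27 and 8.59 at the others, and in the ES-EP ChIP 37.4 (A) and 26.1 (B), against 6.36 and 7.05. Preparation B was the higher one in MEL cells and preparation A in ES-EP.

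In the start codon group, 2 of 12 promoters were called in MEL cells and 1 in ES-EP, against 2.83% and 2.35% of all promoters. The eIF3 scaffold had 2 of 13 called in MEL cells, and the cap-binding group 1 of 12 in ES-EP. Eif1b, a close relative of the scanning factor eIF1, had 25 (A) and 34 (B) reads in MEL cells and none in the MEL input, where 0 reads allow up to 7.01 normalised reads. Both preparations thus stood clear of that level (log2 5.33 ± 1.09 SE, limma adjusted p = 0.000643). Their ratio together was 6.63 with 3 reads put in place of the 0, which leaves out the counting error of the ChIP. In ES-EP the same promoter had 49 and 26 reads with 9 and 18 in the inputs, a ratio of 1.55 (log2 0.52 ± 0.69, limma adjusted p = 0.823). The test of the difference between these ratios did not pass (limma adjusted p = 0.326). With 0 input reads, the fitted log2 values of Eif1b and of Eif3j in MEL cells depend on the prior count and are no bounds. The ES-EP input held 27 reads where the MEL input held 0, while the log2 of MEL over ES-EP ChIP was -0.22.

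Eif2s3y, the Y-linked copy of the γ subunit of eIF2, had 21 and 57 reads in MEL cells with 1 in the input, and 28 and 16 in ES-EP with 1 and 2 in the inputs. Every ChIP preparation lay above every input. The ratio was 26.3 in MEL cells (95% interval 4.59 to 1052; log2 3.99 ± 1.15, limma adjusted p = 0.0290) and 8.21 in ES-EP (2.63 to 41.3; log2 2.58 ± 0.84, limma adjusted p = 0.0723). The X-linked copy, Eif2s3x, had 4 and 20 reads in MEL cells with 6 in the input, and 4 and 4 in ES-EP with 0 and 2. There the MEL preparations lay on both sides of the input, with log2 values of 0.02 (MEL) and 1.09 (ES-EP). Whether reads of these closely related copies were split between them was not tested.

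Eif1a, which stabilises the scanning small subunit, had 62 and 30 reads in ES-EP with 3 and 5 in the inputs, and 18 and 29 in MEL cells with 5 in the input. All ChIP preparations lay above their inputs, with ratios of 6.44 in ES-EP (3.13 to 15.4; limma adjusted p = 0.0498) and 3.17 in MEL cells (1.27 to 10.2; limma adjusted p = 0.384). In ES-EP it was the called promoter nearest the threshold. Nearest on the other side was Eif2d, which can place initiator tRNA without eIF2, with 19 and 6 reads and 0 and 1 in the inputs (ratio 14.0, 2.29 to 574; limma adjusted p = 0.0514). Eif2d passed when reads were counted in 200 bp.

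At the low end of this group stood Eif2s2, the β subunit of eIF2, with 0 and 1 reads in MEL cells and 4 in the input. In ES-EP it had 3 and 2 reads with 2 and 0 in the inputs. The ChIP held no more than 3 reads in any preparation, while the MEL input was near the median of 4.5 reads over the 58 windows and the ES-EP input, with 2 reads, far below its median of 14. With total reads its log2 in MEL cells was -2.95, which did not pass (limma adjusted p = 0.108). In the separate fit with median-ratio scaling Eif2s2 was past the threshold for lower values (1 of the 58, 1.72%, against 1.68% of all promoters). The other 7 promoters of the group, those of Eif1, Eif1ad, Eif1ax, Eif2a, Eif2s1, Eif5 and the X-linked Eif2s3x, had log2 values between -0.74 and 1.48 in MEL cells and between -0.15 and 1.60 in ES-EP. Within 100 bp of the ETS word of Eif2s1, the α subunit of eIF2, lay 3 and 26 reads in MEL cells with 0 in the input, and 21 and 27 in ES-EP with 7 in the inputs.

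Among the 4 eIF2α kinases, the sensors through which stress lowers initiation, none passed the limma threshold in either cell type. Over all promoters 2.83% (MEL) and 2.35% (ES-EP) passed, shares from which a set of 4 genes cannot be told apart. Eif2ak1, the heme-regulated kinase, had 8 and 24 reads in MEL cells with 2 in the input, and 27 and 22 in ES-EP with 5 and 12 in the inputs. The ChIP exceeded the input in both preparations of both cell types, by 5.40-fold in MEL cells (1.38 to 46.5; limma adjusted p = 0.347) and by 1.61-fold in ES-EP (0.913 to 2.99; limma adjusted p = 0.758). Library by library, Eif2ak1 had 3, 5, 9 and 15 reads in MEL cells (A1, A2, B1, B2) and 8, 19, 2 and 20 in ES-EP, so that library B1 of ES-EP stood lowest. Few of these reads lay within 100 bp of its ETS word, 2 and 7 in MEL cells with 1 in the input, and 8 and 5 in ES-EP with 7 in the inputs.

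Eif2ak3, the kinase of the endoplasmic reticulum, had 11 and 27 reads in MEL cells with 1 in the input, and 15 and 12 in ES-EP with 3 and 8. Its MEL ratio of 12.8 (2.17 to 519) was the highest of the kinases and passed the exact binomial test (adjusted p = 0.00524) but not limma (adjusted p = 0.135), and its ES-EP ratio was 1.37 (0.660 to 3.07). Reads in MEL cells were spread from the TSS to 500 bp downstream, with no bin of 50 bp above 7.10 normalised reads. Eif2ak2, the kinase activated by double-stranded RNA, had 8 and 10 reads in MEL cells with 1 in the input, and 16 and 8 in ES-EP with 2 and 10. Its ratios were 6.07 (0.959 to 253) and 1.12 (0.538 to 2.46).

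Eif2ak4, which senses uncharged tRNA, was the lowest of the kinases, with 7 and 14 reads in MEL cells and 4 in the input, and 19 and 16 in ES-EP with 6 and 12. Its ratios were 1.77 (0.597 to 7.10) and 1.09 (0.600 to 2.04). The median log2 of the 4 kinases was 2.03 in MEL cells and 0.30 in ES-EP, but their MEL input held only 1 to 4 reads each. The difference between the ratios of the 2 cell types had log2 values from 0.59 (Eif2ak4) to 2.60 (Eif2ak3), with limma adjusted p-values of 0.740 or more. In windows of 200 bp, where 4.71% of all promoters passed in MEL cells, Eif2ak2 and Eif2ak3 did so, both at a limma adjusted p of 0.0273.

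**Figure D4:**
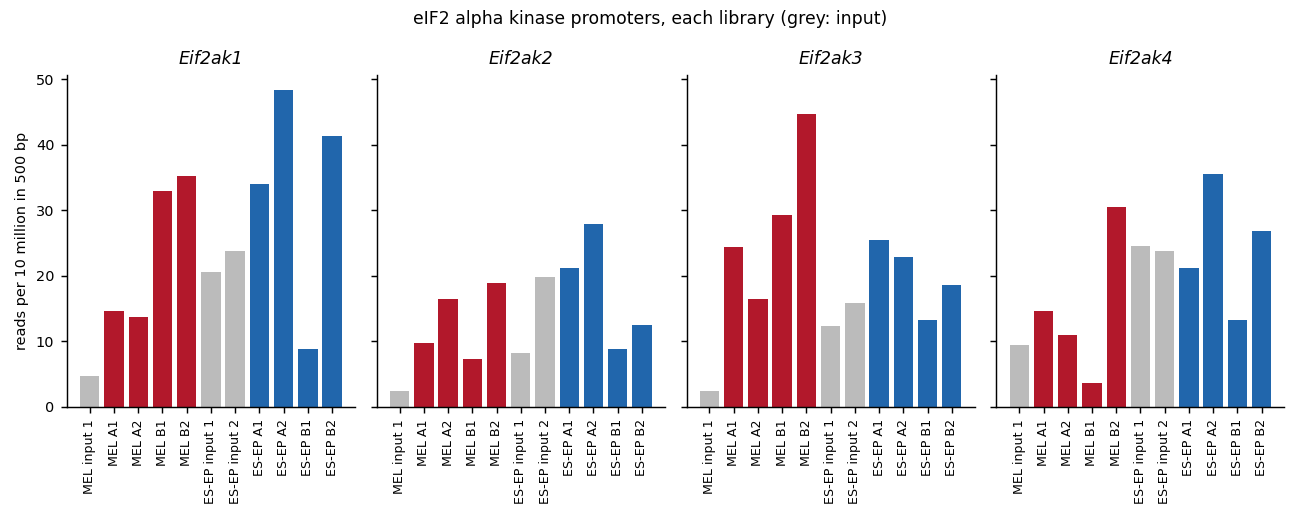
Normalised reads (scaled to 10000000) in the 500 bp window (vertical axis) of the 4 eIF2α kinase promoters in each library, with grey bars for input, red for MEL PU.1 and blue for ES-EP PU.1. The MEL input bar is the lowest bar of the Eif2ak1, Eif2ak2 and Eif2ak3 panels, and both ES-EP input bars lie within the range of the ES-EP ChIP bars for Eif2ak1 and Eif2ak4.

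None of the 5 genes of eIF2B, which recharges eIF2 with GTP, passed in either cell type, against 2.83% (MEL) and 2.35% (ES-EP) of all promoters. The highest was Eif2b2, the β subunit, with 13 and 28 reads in MEL cells and 2 in the input, and 33 and 22 in ES-EP with 4 and 5. Both preparations of both cell types lay above the input, with ratios of 6.91 (1.80 to 59.0) and 3.42 (1.68 to 7.87), and both passed the exact binomial test (adjusted p = 0.0104 and 0.00213). The lowest was Eif2b4, the δ subunit, whose 12 and 30 reads in MEL cells faced 13 in the input and whose 17 and 20 in ES-EP faced 7 and 10. Its MEL preparations lay on both sides of the input. Within 100 bp of the ETS word of Eif2b4 lay 4 and 19 reads in MEL cells with 6 in the input. In ES-EP there were 8 and 14 with 13 in the inputs. The start of Snx17 lies 88 bp upstream of that of Eif2b4 on the opposite strand, and 9 of the 58 promoters (15.5%, against 10.6% of all) have such an opposite start within 1 kb.

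The eIF3 scaffold held 2 called promoters, both in MEL cells. Eif3j, the loosely bound subunit that helps place mRNA, had 5 and 40 reads in MEL cells with none in the input, and 18 and 20 in ES-EP with 2 and 7 in the inputs. All ChIP preparations lay above the level of their inputs. In MEL cells the 2 preparations together had a ratio of 5.06 with 3 reads put in place of the 0 (log2 4.34 ± 1.09, limma adjusted p = 0.00876). That ratio leaves out the counting error of the ChIP. In ES-EP the ratio was 2.36 (1.12 to 5.56, limma adjusted p = 0.577). In MEL cells the A preparation had 8.78 normalised reads, near the 7.01 that 0 input reads allow, and the promoter was not called without B.

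The window of Eif3j cut through a peak. In both cell types the 3 highest bins of 50 bp lay around the PU.1 word at offset -249, the highest being that from -250 in MEL cells (20.5 normalised reads) and that from -300 in ES-EP (20.2). Within 100 bp of that word there were 8 and 48 reads in MEL cells with 0 in the input, and 28 and 27 in ES-EP with 3 in the inputs. At the TSS of Eif3j itself the ChIP held few reads, and in ES-EP a second, lower stretch lay downstream of the TSS, with up to 5.98 normalised reads in the bin from 450.

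Eif3a, the largest scaffold subunit, had the highest levels of the group, with 40 and 84 reads in MEL cells and 4 in the input, and 76 and 47 in ES-EP with 4 and 23 in the inputs. The ratio was 10.5 in MEL cells (3.98 to 39.0; log2 3.14 ± 0.94, limma adjusted p = 0.0365), which was the call nearest the threshold there, and 2.55 in ES-EP (1.67 to 4.02; limma adjusted p = 0.307). Its highest bins lay within 100 bp on both sides of the TSS, with lower levels further downstream, and neither the PU.1 nor the ETS word was found in its window. The level in MEL cells, 70.2 and 120 normalised reads, overlapped that in ES-EP, 121 and 66.2.

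Eif3l and Eif3m carried a word upstream of the TSS. Eif3l had 10 and 34 reads in MEL cells with 2 in the input (ratio 7.42, 1.94 to 63.2) and 20 and 21 in ES-EP with 3 and 5 (ratio 2.87, 1.33 to 7.08), and passed the exact binomial test in both. Within 100 bp of the PU.1 word of Eif3m there were 2 and 18 reads in MEL cells with 0 in the input, and 12 and 19 in ES-EP with 3. The full window of Eif3m, with 6 and 33 reads against 6 in MEL cells, was at a log2 of only 0.62. At the low end was Eif3k, a small subunit, with 4 and 10 reads in MEL cells against 5 and 1 and 3 in ES-EP against 1 and 2. The remaining 8 subunits had log2 values between 0.03 and 1.18 in MEL cells and between -0.05 and 1.06 in ES-EP.

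Among the cap-binding and helicase factors, Eif4e2, which encodes the cap-binding relative 4EHP, had the highest ChIP level of the 58 genes in ES-EP and the second highest in MEL cells. It had 109 and 70 reads in ES-EP with 7 and 10 in the inputs, and 31 and 76 in MEL cells with 4 in the input. All ChIP values lay far above the inputs, by 5.89-fold in ES-EP (3.58 to 10.3; log2 2.40 ± 0.71, limma adjusted p = 0.0356) and by 9.02-fold in MEL cells (3.42 to 33.7; log2 2.88 ± 0.94, limma adjusted p = 0.0582), where it was the uncalled promoter nearest the threshold. It passed in both cell types in windows of 200 bp. Within 100 bp of its ETS word at offset 2 lay 27 and 64 reads in MEL cells with 1 in the input, and 78 and 54 in ES-EP with 8.

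Eif4a3, the helicase of the exon junction complex, carried the PU.1 word at offset 8. It had 108 and 63 reads in ES-EP with 7 and 20 in the inputs, and 27 and 54 in MEL cells with 11 in the input. The ratios were 3.54 (2.35 to 5.54; limma adjusted p = 0.192) and 2.48 (1.32 to 5.17), and both passed the exact binomial test, the MEL ratio at an adjusted p of 0.0282. Within 100 bp of the word lay 102 and 48 of the ES-EP reads with 16 in the inputs, and 24 and 39 of the MEL reads with 5. The highest bin in both cell types was that from the TSS to 49 bp downstream, with 48.6 normalised reads in ES-EP and 21.3 in MEL cells.

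**Figure D5:**
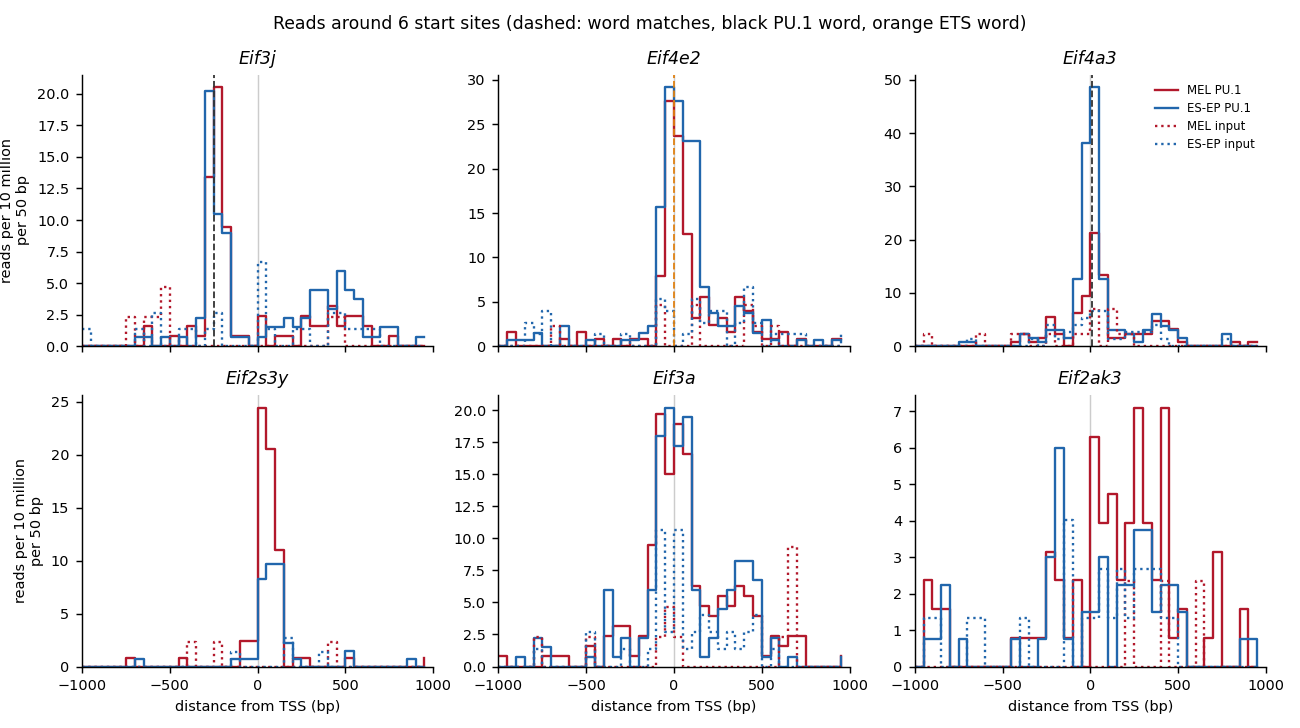
Normalised reads (scaled to 10000000) in bins of 50 bp (vertical axis) from 1000 bp upstream to 1000 bp downstream of the TSS of 6 genes, for PU.1 ChIP (solid) and input (dotted) in MEL cells (red) and ES-EP (blue), with dashed lines at the PU.1 word (black) or the ETS word (orange). Reads at Eif3j peak at its word upstream of the TSS, those at Eif4e2, Eif4a3 and Eif3a peak at the TSS, those at Eif2s3y just downstream of it, and those at Eif2ak3 form no single peak.

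Eif4e, the cap-binding protein of eIF4F itself, was at the other end, with 0 and 7 reads in MEL cells against 3 and 1 and 1 in ES-EP against 2 and 2. Eif4e1b, its oocyte relative, had 3 and 0 reads in MEL cells against 3 and 2 and 2 in ES-EP with none in the inputs, so that both sides were at or under the limit that 0 reads allow. The ES-EP input was also low at both, with 4 and 0 reads against a median of 14 over the 58 windows. The remaining 8 factors had log2 values between -0.33 and 2.03 in MEL cells and between 0.10 and 1.77 in ES-EP, with Eif4e3 and Eif4a2 at the top.

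The proteins that bind eIF4E and hold it from eIF4G had no called promoter, against 2.83% (MEL) and 2.35% (ES-EP) of all promoters. Eif4ebp1, the target of mTOR, was the highest, with 15 and 31 reads in MEL cells against 4 and 55 and 26 in ES-EP against 5 and 19. Both preparations lay above the input, with ratios of 3.88 (1.42 to 14.8; limma adjusted p = 0.354) and 1.89 (1.19 to 3.12; limma adjusted p = 0.720). Eif4enif1, the eIF4E transporter, was the lowest, with 8 and 22 reads against 6 in MEL cells and 36 and 20 against 10 and 17 in ES-EP. That value belonged to the main start of Eif4enif1 only.

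A further start of Eif4enif1, 967 bp downstream of the main one, had 9 and 18 reads in MEL cells with none in the input, and 31 and 24 in ES-EP with 1 in the inputs. Both preparations of both cell types stood above the input there. In a fit over all 31613 separate starts of protein-coding genes, 82 of them from the 58 genes, this start was called in both cell types (log2 4.17 ± 1.06 and 4.11 ± 0.86, limma adjusted p = 0.0110 and 0.000382). In that fit 6 of the 82 starts were called in MEL cells (7.32%, against 2.30% of all starts) and 2 in ES-EP (2.44%, against 1.83%). The other further start among them was that of Eif4g1, a scaffold of eIF4F, 675 bp downstream of its main start, with 10 and 21 reads in MEL cells and 0 in the input (limma adjusted p = 0.00679), and 29 and 17 in ES-EP with 17 in the inputs (limma adjusted p = 0.414).

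Of the factors of subunit joining and later steps, Eif6, which keeps the large subunit apart, was the highest, with 4 and 17 reads in MEL cells against 3 and 15 and 16 in ES-EP against 0 and 6. Eif5a, the hypusine-bearing elongation and termination factor, was the lowest, with 12 and 22 against 7 and 32 and 25 against 10 and 21. In MEL cells the A preparation of Eif6 was level with the input (7.02 and 7.01 normalised reads), and neither gene passed (limma adjusted p between 0.242 and 0.994). Among the Argonaute genes, Eif2c4 was the highest, with 6 and 28 reads in MEL cells against 2 and 12 and 12 in ES-EP against 0 and 11, and Eif2c1 the lowest, with 11 and 20 against 7 and 45 and 18 against 9 and 26. Eif2c3, which lies next to these 2 genes on chromosome 4, passed the exact binomial test in both cell types.

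The second question was whether PU.1 occupied these promoters differently in leukemic and normal erythroid cells. No promoter in the genome differed between MEL and ES-EP ChIP past an adjusted p of 0.05 (limma voom), so that the share called was 0% of all promoters and of the 58. At an unadjusted p under 0.05, 2.51% of all promoters were higher in MEL cells and 3.19% were lower, with 0 and 1 of the 58, and the log2 trend fit also called 0. Median-ratio scaling called 0.707% higher and 0.331% lower, and none of the 58. The 3 lowest p-values among the 58 were those of Eif4g2, Eif3k and Eif4ebp2.

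Eif4g2, a scaffold relative of eIF4G that lacks the eIF4E site, had 5 and 10 reads in MEL cells, and 32 and 21 were found in ES-EP. The ES-EP preparations lay above both MEL preparations, with a log2 of MEL over ES-EP of -1.71 ± 0.65 (limma unadjusted p = 0.0206, adjusted p = 0.799). Eif3k went the other way, with 4 and 10 reads against 1 and 3 (1.66 ± 0.78), and Eif4ebp2, another mTOR target, had 9 and 18 against 42 and 25 (-1.24 ± 0.66), both at a limma adjusted p of 0.799. At the further start of Eif4g2, 835 bp downstream, MEL cells had 7 and 34 reads, against 53 and 27, and the cell types overlapped once scaled to depth.

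Both ES-EP preparations lay above both MEL preparations at 15 of the 58 promoters (25.9%, against 19.1% of all), and both MEL preparations lay above at 2 (3.45%, against 11.9%), Eif2s3x and Eif3k. The median log2 of MEL over ES-EP ChIP was -0.63 over the 58 and -0.22 over the others, and -0.59 over the other promoters of high GC. The inputs moved the same way, with the ES-EP input the higher at these promoters, and the difference of the ChIP to input ratios had a median of 0.35 over the 58, 0.38 over the others and 0.88 over those of high GC. The median of the 58 stood -0.03 from that of all promoters without MEL preparation A, and -0.48 without B. The inputs were also compared by chromosome, scaled by depth and then by the median ratio of the autosomes. The 2 members on chromosome X, where the MEL input so scaled was 1.56 times the ES-EP input, had a median of 0.50. The other genes there had 0.16. The single member on chromosome 8, at 0.732 times, was at -0.73, against -0.80. The 6 on chromosome 15 and the 3 on chromosome 3, both at 1.33 times, had medians of -0.06 and -1.07, against 0.00 and 0.21 over the other genes there. The part of copy number in these values was not tested.

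Of 41 windows of other genes of the translation pathway, 2 were called in MEL cells (4.88%, against 2.83% of all promoters) and 3 in ES-EP (7.32%, against 2.35%). Of 10 genes of the integrated stress response, Nck1 was called in both cell types, with 79 and 158 reads in MEL cells against 5 and 372 and 213 in ES-EP against 10 and 23 (limma adjusted p = 0.00576 and 0.000946). Of 14 genes of cap-dependent control, Pabpc1, the poly(A)-binding protein, was called in MEL cells (25 and 59 against 2, limma adjusted p = 0.0448). Of 8 genes of termination and recycling, Etf1 and Mcts1 were called in ES-EP (limma adjusted p = 0.00316 and 0.0304), Mcts1 on 7 and 7 reads with 0 in the inputs. Of the 9 windows of 8 elongation genes, Eef2k having 2 gene identifiers, none was called in either. Neither Sfpi1 nor the muscle gene Myog was called at its start, with 8 and 8 reads against 2 and 2 and 6 against 3 in MEL cells. In ES-EP they had 4 and 2 against 5 and 3 and 3 against 2. The paper reports very high PU.1 occupancy at an upstream regulatory element of Sfpi1, which lies outside this window. It also states that PU.1 was bound at the promoter region of Sfpi1. The window counted here held the start of 1 of the 3 protein-coding transcripts of Sfpi1, so that it is no measure of the whole locus.

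Over all genes, the words searched went with more ChIP. Of the 946 promoters with the PU.1 word, 84 were called in MEL cells and 118 in ES-EP, against 548 and 407 of the 21413 without it. Of the 3 initiation factor promoters with it, Eif3j was called in MEL cells. Of all 1303 promoters with the ETS word, 67 were called in MEL cells and 76 in ES-EP, against 565 and 449 of the 21056 without it. Of the 10 initiation factor promoters with it, Eif4e2 and Eif1a were called in ES-EP and none in MEL cells, where all 4 called promoters were among the 48 without it. The median log2 of the 10 was 1.44 in MEL cells and 1.13 in ES-EP, against 0.98 and 0.57 in the 48 without. GGGGCGGG, the word of Sp1-type factors, lay in 23 of the 58 windows (39.7%, against 26.3% of all), with medians of 1.48 and 1.03 against 0.80 and 0.51 in the 35 without. The word of NRF1 lay in the window of Eif3k only, and the E2F-type word TTTNGCGC in those of Eif2d and Eif3c. These are matches of letters within the windows and carry no test.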

How the data were processed

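The files deposited by the authors list 1 aligned read per line, with other fields than a measured value, so every count was made here. The authors sequenced on an Illumina GAII and aligned with ELAND to mm9, keeping unique reads with up to 2 mismatches; the version of ELAND is not given in the sources used here. Read starts were moved by 70 bp (MEL) or 65 bp (ES-EP) and counted in 500 bp around 1 TSS per protein-coding gene of GENCODE vM1 (NCBIM37). The libraries of a preparation were summed (2 preparations per cell type, 2054667 to 4840424 reads per library), and total reads served as library size. Tests used limma voom 3.58.1 in R 4.3.3, two-sided, with Benjamini-Hochberg adjustment over all 22359 windows and no filter on low counts. The ChIP against input tests came from 1 fit over all groups, because MEL cells have 1 input library, which is assumed to vary like the others, and the MEL against ES-EP test from the ChIP alone. P-values measure the spread between the 2 preparations of a cell type and, against input, between the 2 ES-EP input libraries, counted as 2 replicates; both may be technical. The reads are of DNA, so the cell types were not checked against expressed markers. Ratios divide depth-scaled ChIP by input, with 3 reads in place of 0, and SE is the standard error of the limma log2. The fits were also run on simulated counts with the same baseline in all libraries, raised only at better covered windows. Such counts cannot decide whether calls on few input reads hold. The members and lists were chosen with earlier results of these data known. Named were the kinases, the highest and lowest member of each role by the mean log2 ChIP over input of both cell types, the 3 lowest p-values between cell types, members without input reads and those nearest the thresholds; members of the exact binomial, 200 bp or word lists, and Eif2s3x as the copy of Eif2s3y, were named after their values were seen. Alternatives covered tool, scaling, filter, repeated reads, window width, start, library and preparation. Python 3.11.15, numpy 2.4.6, pandas 2.3.3 and scipy 1.17.1 were used.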

Additional observations from a re-analysis of the deposited data

Results flagged for a closer look

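Reads at starts outside the windows used for the comparisons exceeded input past an adjusted p of 0.05 (limma) in 3 cases. These were the further start of Eif4enif1 in MEL cells (log2 4.17) and in ES-EP (log2 4.11) and the further start of Eif4g1 in MEL cells (log2 4.35). In MEL cells both had 0 input reads, so that these fitted values depend on the prior count and are no bounds. No member's difference between the ChIP to input ratios of the 2 cell types passed (4 of the 58 at an unadjusted p under 0.05, 6.90%, against 6.84% of all promoters), and no library stood apart in 22 checks of the 4 libraries of a ChIP group by Dixon's criterion.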

How the results depend on the processing

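The called counts depended on the tool, the scaling and single preparations or libraries, and the cause was not tested. For all promoters in MEL cells (632 in the fit reported) the counts were 355 in 1000 bp, 1054 in 200 bp, 221 with at least 20 reads, 2336 by the exact binomial test, 991 with library 1, 0 with the log2 trend fit and 96 with median-ratio scaling, and for the Eif promoters there (4) they were 1, 11, 2, 13, 4, 0 and 1. For all promoters in ES-EP (525) the counts were 2059 by the binomial test, 0 with the trend fit, 459 in 1000 bp, 513 at the 5′-most TSS and 387 with library 1, and for the Eif promoters there (2) they were 14, 0, 0, 1 and 1. Leaving out 1 preparation or input library gave from 0 to 1167 promoters in MEL cells and from 0 to 769 in ES-EP, and from 0 to 5 and from 0 to 4 Eif promoters. Between the cell types (0) the counts were 39 in the fit with inputs, 4 with at least 20 reads, 1 for the difference of ratios, 232 with median-ratio scaling and from 0 to 1 without 1 preparation, with 0 Eif promoters under every one of these alternatives. The fit over all separate starts, chosen after seeing the data, gave 726, 578 and 0.

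The letters of the preparations did not pair the samples (correlation of the A deviations -0.0840), and with the letter as a replicate block 3 promoters and no Eif promoter differed between the cell types. Median-ratio scaling shifted the median log2 of all promoters by -1.15 in MEL cells, -0.52 in ES-EP and 0.37 between them, and the Eif median stood 0.56, 0.60 and -0.37 from that of all promoters, against 0.51, 0.67 and -0.40 with total reads. It gave 96 higher and 375 lower calls in MEL cells, against 632 and 20.

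Of the 6 called promoters none changed sign in the comparison that called it, while the kinases did. In MEL cells Eif2ak4 was at -0.18 with library 1 and -0.53 with median-ratio scaling. In ES-EP Eif2ak1 was at -0.18 in 200 bp and -0.24 with library 1, Eif2ak2 at -0.21 in 1000 bp, -0.40 with median-ratio scaling and from -0.37 to 0.80 with 1 preparation or input left out, Eif2ak3 at -0.11 with median-ratio scaling, and Eif2ak4 at -0.014 with 1 read per position, -0.42 with library 1, -0.40 with median-ratio scaling and from -0.14 to 0.28 with 1 left out. Of the values of the remaining promoters, 64 changed sign in MEL cells, 77 in ES-EP and 122 between the cell types, and 814, 832 and 864 kept sign and call. Of 18 alternatives, the call was kept in 14 for Eif1b, 11 for Eif2s3y, 11 for Eif3a, 10 for Eif3j, 12 for Eif4e2 and 8 for Eif1a. The Eif windows held a median of 4.5 (MEL) and 14 (ES-EP) input reads, and the part of depth in the calls was not tested.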
